A study of Mus musculus with 12 samples.

Results

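The genes described here are 10 members of the unfolded protein response and the integrated stress response, Hspa5, Xbp1, Ern1, Atf4, Atf6, Ddit3, Trib3, Asns, Chac1 and Sesn2. They were chosen by gene symbol from the 16920 genes of a mouse RNA-seq experiment, and all 10 were found. The experiment held 12 libraries of peritoneal macrophages, 3 in each of 4 groups. These were wild-type cells (WT) kept with PBS, WT cells kept with lipopolysaccharide (LPS, 1 µg/mL), cells labelled Ythdf1-/- kept with PBS, and cells labelled Ythdf1-/- kept with LPS, each for 6 hours. The cells of all groups had been drawn into the peritoneum and cultured overnight before treatment. The series record names 6% starch broth injected 3 days before as the elicitor, whereas the study's methods name thioglycollate. The mice were C57BL/6 animals aged 6 to 10 weeks per the study's methods, and the allele was made in the whole body with CRISPR/Cas9. LPS is the outer-membrane glycolipid of Gram-negative bacteria, and Ythdf1 encodes a protein that binds RNA carrying N6-methyladenosine. The labels call the 3 libraries of a group independent samples and biological replicates but do not say whether each came from its own mouse, so p-values measure the spread between these samples. Total counts per library lay between 21546274 and 22017005.

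The unfolded protein response adjusts the folding capacity of the endoplasmic reticulum (ER) to its load of new proteins. Its sensors are IRE1 (encoded by Ern1), which splices Xbp1 mRNA into the form that encodes an active transcription factor, ATF6, which is cut into a transcription factor in the Golgi, and PERK (encoded by Eif2ak3), which phosphorylates the translation factor eIF2. Phosphorylation of eIF2, by PERK or by other kinases that sense amino acid shortage, haem shortage or double-stranded RNA, is the step shared by the integrated stress response, in which Atf4 mRNA is translated more and ATF4 induces Ddit3 (CHOP), Trib3, Asns, Chac1 and Sesn2. Macrophages that meet LPS make large amounts of secreted protein, and this response has been studied in them for that reason. Counts per gene do not separate the spliced from the unspliced Xbp1 mRNA, and Atf4 is controlled largely by translation, so neither activity was measured here.

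In GRCm38.p6 the members lie on 7 chromosomes. Hspa5 is at chr2:34772090-34776529 on the plus strand, Chac1 at chr2:119351242-119354326 (plus) and Trib3 at chr2:152337425-152344060 (minus). Xbp1 is at chr11:5520641-5525993 (plus), Ern1 at chr11:106397620-106487796 (minus), Atf4 at chr15:80255184-80257545 (plus) and Atf6 at chr1:170704457-170868585 (minus). Ddit3 is at chr10:127290793-127296291 (plus), Asns at chr6:7675165-7693209 (minus) and Sesn2 at chr4:132492804-132510456 (minus). In RefSeq, Hspa5 overlaps Rabepk, Atf6 overlaps 4 predicted genes and Ddit3 overlaps Mars1 and Mbd6, and whether the counting used strand is not given in the sources used here.

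The promoter windows of the members that hold the letters of a known stress-response element are shown. RefSeq windows (GRCm38.p6, 250 bases before to 50 after the start site, with the start base counted as 0) were found for 9 of the 10 members, and Atf6 had none. The ER stress response element, written as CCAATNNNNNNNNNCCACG and bound by ATF6 with NF-Y, was searched on both strands and found in Hspa5 alone among them, from -65 to -47. It was present in 0.12% of all 32544 windows. The element bound by ATF4 with C/EBP partners, TGATGNAA, was found in Chac1 (opposite strand, -193 to -186), in Trib3 (opposite strand, 14 to 21) and in Asns (same strand, -23 to -16), and in 3.91% of all windows. The letters TGACGTGG, a core of the XBP1 site, and TGACGTCA, a cyclic AMP response element, were in none of the 9 windows and in 0.682% and 1.8% of all windows. A match is a description of the letters and was not tested for binding. In the stretches below, each read 5′ to 3′ on the strand of its gene, capitals mark the element. They lie at chr2:34771970-34772089 (plus strand, Hspa5), chr2:119350992-119351111 (plus strand, Chac1), chr2:152344036-152344155 (minus strand, Trib3) and chr6:7693210-7693329 (minus strand, Asns).
Hspa5: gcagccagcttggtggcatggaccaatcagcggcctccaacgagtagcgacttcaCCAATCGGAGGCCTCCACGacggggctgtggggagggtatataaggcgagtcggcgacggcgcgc
Chac1: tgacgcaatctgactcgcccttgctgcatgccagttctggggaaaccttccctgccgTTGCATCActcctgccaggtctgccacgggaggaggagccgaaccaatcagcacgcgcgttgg
Trib3: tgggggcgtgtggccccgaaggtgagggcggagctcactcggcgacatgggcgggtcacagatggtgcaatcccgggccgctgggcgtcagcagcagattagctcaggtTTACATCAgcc
Asns: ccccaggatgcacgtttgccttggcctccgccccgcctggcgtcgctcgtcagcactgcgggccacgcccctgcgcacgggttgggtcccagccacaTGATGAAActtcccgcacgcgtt

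Before the results, the libraries were checked against their labels. The 10 macrophage markers were all detected, and their summed level lay between 18060 and 20870 CPM (read counts divided by the TMM-scaled size of the library) in every group. Lyz2 made up most of that sum, at 9854 to 12850 CPM, and single markers moved with the label in both directions. Under PBS 3 of the 10 were higher and 3 lower in the KO-labelled libraries without overlap, and under LPS 1 was higher and 5 lower. Of all genes tested, 23.5% were higher and 24.6% lower in that sense under PBS, and 24.2% and 21.4% under LPS. Cd14 lay between 52.8 and 56.9 CPM in WT PBS and 58.2 and 66.0 in KO-labelled PBS, and between 433 and 479 CPM in WT LPS and 694 and 764 in KO-labelled LPS. C1qa lay between 278 and 292 CPM in WT PBS and 131 and 149 in KO-labelled PBS, C1qb between 597 and 624 and between 398 and 430 CPM, and Mertk under LPS between 225 and 246 CPM in WT and 87.6 and 107 in KO-labelled libraries. Their part in the results was not tested. Ythdf1 itself was not lower in the libraries labelled as knockouts, with a mean of 43.5 ± 1.54 CPM (SD, n = 3) in WT PBS, 57.2 ± 1.53 in the knockout-labelled PBS group, 202 ± 9.37 in WT LPS and 198 ± 6.94 in the knockout-labelled LPS group. Under PBS Ythdf1 passed as higher in the KO-labelled libraries (log2 fold change 0.40, adjusted p = 0.000133 by edgeR's quasi-likelihood test), and did so in all 20 alternatives. Under LPS it did not pass (-0.03, adjusted p = 0.724). Counts over the whole gene would not show a short deletion. These libraries are therefore called KO-labelled throughout, and comparisons between genotypes rest on the labels. WT LPS replicate 1 stood apart from its group, with a mean chi-square of its counts over genes of 31.4 and 24.4 against replicates 2 and 3, which gave 3.01 against each other. The KO-labelled LPS group was also uneven, at 15.9 between replicates 2 and 3, 7.12 between 1 and 2 and 5.61 between 1 and 3. The PBS groups gave 2.75 to 4.63. Member values for the LPS response in WT are given with and without WT LPS replicate 1. The same holds for other member values where its absence changed the call. Of the markers of other cells, those of B and plasma cells, in which the unfolded protein response is strongly active, summed to at most 2.21 CPM in any library, with Jchain at no more than 0.113 CPM. Fibroblast markers (5 of 6 above 3 counts) summed to 75.1 to 88.6 CPM in WT PBS, 119 to 132 in WT LPS, 32.9 to 46.2 in KO-labelled PBS and 57.0 to 69.5 in KO-labelled LPS, so they moved with the label and with LPS. Skeletal muscle markers (9 of 9 above 3 counts) summed to 19.9 to 26.3 CPM in WT PBS and 33.3 to 39.3 in WT LPS, against 0.461 to 22.7 in KO-labelled PBS, where replicate 3 held the lowest value, and 0.429 to 0.736 in KO-labelled LPS. Their part in the results was not tested.

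To learn how abundant the stress-response genes were relative to each other, levels per kilobase of exon were compared. Hspa5, which encodes the ER chaperone BiP, was the most abundant, at 209.9 CPM per kb averaged over the 4 groups. Next came the transcription factors Atf4 at 93.1 CPM per kb and Xbp1 at 58.3 CPM per kb. Atf6, Ddit3 and Asns followed at 8.79, 7.32 and 6.71 CPM per kb. Ern1 at 2.02, Sesn2 at 1.415 and Trib3 at 1.14 CPM per kb were low, and Chac1 was the lowest at 0.386 CPM per kb. Chac1 rested on 23 to 35 counts per library under PBS and 1 to 11 under LPS, and Trib3 on 11 to 20 counts under LPS, so both are imprecise there. All 10 passed the filter on low counts.

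**Figure D1:**
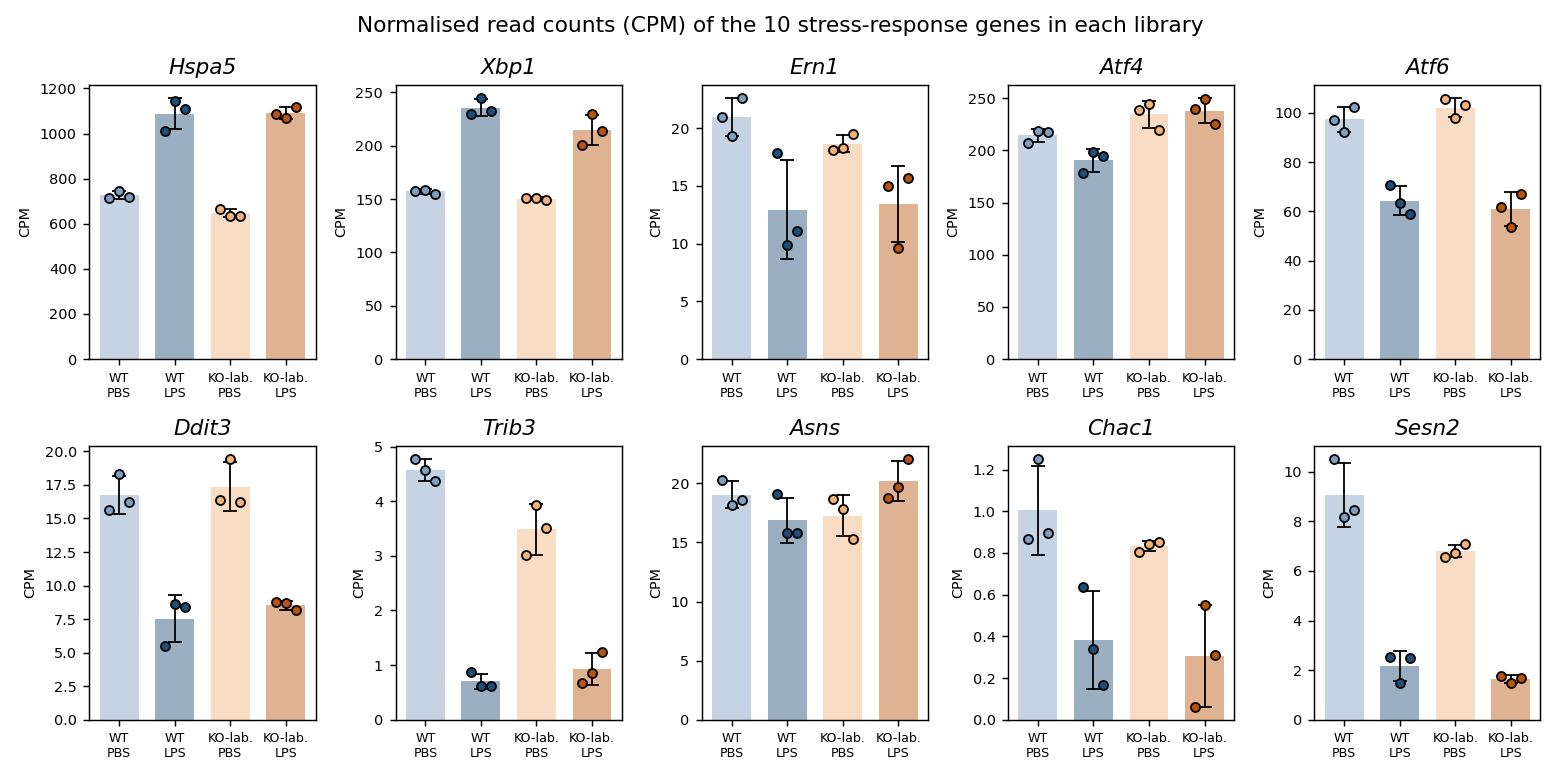
Each panel plots the normalised read count (CPM, linear axis from 0) of a gene by group. Points are the 3 libraries of a group in replicate order, bars the mean and whiskers the SD. Trib3, Sesn2, Ddit3 and Chac1 lie lower in every LPS library than in any PBS library of the same label, while Hspa5 and Xbp1 lie higher.

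To determine what LPS did to these genes in WT macrophages, the 3 WT LPS libraries were compared with the 3 WT PBS libraries. The effectors Ddit3, Trib3, Chac1 and Sesn2 and the sensors Atf6 and Ern1 fell, Asns did not pass, and the chaperone Hspa5 and the transcription factor Xbp1 rose on the TMM scale. By edgeR's quasi-likelihood test, 2 members passed the threshold (adjusted p under 0.05) as higher and 7 as lower, and 1 did not pass. Over all 12064 genes tested, 36.5% passed as higher and 40.2% as lower. The median log2 fold change of the members was -0.65, against -0.05 for all genes. The groups did not overlap for 2 members on the higher side and 7 on the lower side, against 37.1% and 41.1% of all genes. Lower mRNA levels in bulk samples may mean fewer cells of a type or less RNA per cell, which cannot be told apart here.

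Trib3, a pseudokinase that feeds back on ATF4 and CHOP, showed the largest fall. It stood at 4.77, 4.58 and 4.36 CPM in the WT PBS libraries and at 0.868, 0.626 and 0.621 CPM in the WT LPS libraries. All 3 LPS values lay below the lowest PBS value. The log2 fold change was -2.69 ± 0.206 (SE, adjusted p = 2.9e-09), or 6.45-fold lower.

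Sesn2, a leucine sensor that restrains mTORC1, had 10.5, 8.19 and 8.44 CPM under PBS and 2.55, 1.48 and 2.48 CPM under LPS in WT. Again the groups were well separated, with a log2 fold change of -2.06 ± 0.160 (adjusted p = 3.73e-09). Chac1, which degrades glutathione, had 0.868, 1.25 and 0.894 CPM under PBS. Its WT LPS libraries read 0.636, 0.342 and 0.169 CPM, the last of which is 3 counts. Its log2 fold change was -1.39 ± 0.422 (adjusted p = 0.00691), with the widest error of the members.

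Ddit3 encodes CHOP, a transcription factor of prolonged ER stress that promotes cell death. Its WT PBS libraries read 15.7, 18.3 and 16.2 CPM and its WT LPS libraries 5.49, 8.66 and 8.41 CPM. The lowest of these was replicate 1, and no LPS library reached the PBS range. The log2 fold change was -1.15 ± 0.130 (adjusted p = 4.47e-07). Ddit3 was the single member with fractional counts, in 9 of the 12 libraries, so some of its reads may have been shared out between genes.

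Atf4, the transcription factor upstream of these effectors, changed little on the TMM scale. With upper-quartile scaling (-0.48 on the log2 scale) and with library totals alone (-0.83) it passed as lower. It read 207, 218 and 218 CPM under PBS and 178, 199 and 195 CPM under LPS, and the groups did not overlap. The log2 fold change of -0.17 ± 0.0621 passed the threshold (adjusted p = 0.0201), but not with RLE scaling (-0.12), with DESeq2 (-0.12) or without single libraries, among them WT LPS replicate 1 (-0.12) and WT PBS replicate 2 (-0.16) or 3 (-0.16). Asns, which makes asparagine, read 20.3, 18.1 and 18.6 CPM under PBS and 19.1, 15.8 and 15.8 CPM under LPS. These ranges overlapped, and the log2 fold change of -0.17 ± 0.0973 did not pass (adjusted p = 0.116). Replicate 1 held the highest LPS value, and without it Asns passed as lower (-0.27). It also passed as lower with upper-quartile scaling (-0.48) and with library totals alone (-0.84).

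Of the ER sensors, Atf6 read 97.0, 92.4 and 102.5 CPM under PBS and 70.7, 63.4 and 58.8 CPM under LPS. Its fall of 0.60 ± 0.0822 on the log2 scale (adjusted p = 4.78e-06) was larger than the spread in either group. Ern1 read 21.0, 19.3 and 22.6 CPM under PBS and 17.8, 9.91 and 11.1 CPM under LPS. Replicate 1 of the LPS group lay near the PBS range without reaching it. The log2 fold change of Ern1 was -0.70 ± 0.195 (adjusted p = 0.00593).

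Xbp1, the target of IRE1, read 158, 159 and 155 CPM under PBS and 230, 245 and 233 CPM under LPS. Hspa5 read 714, 746 and 718 CPM under PBS and 1011, 1145 and 1109 CPM under LPS. Both were higher in every LPS library, with log2 fold changes of 0.58 ± 0.0560 for Xbp1 (adjusted p = 5.51e-08) and 0.58 ± 0.0564 for Hspa5 (adjusted p = 6.09e-08). These rises depended on the scaling, since with library totals alone the log2 fold changes were -0.08 for each and did not pass (adjusted p = 0.207 and 0.221). Hspa5 had 19753, 20852 and 20075 unscaled counts under PBS and 17485, 20102 and 19657 under LPS, in libraries of nearly the same total. The TMM factors were 1.26 to 1.27 for the WT PBS libraries and 0.786 to 0.808 for the WT LPS libraries. With totals alone the median log2 fold change of all genes was -0.71, so Xbp1 and Hspa5 lay above that median under either scaling. The falls of Trib3, Sesn2, Chac1, Ddit3, Atf6 and Ern1 passed under all scalings tried.

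Without WT LPS replicate 1, which stood apart, 2 members were again higher and 7 lower in WT. Hspa5 was then at 0.63 and Xbp1 at 0.60, while Trib3 was at -2.86, Sesn2 at -2.19, Chac1 at -1.96, Ern1 at -0.999, Ddit3 at -0.97 and Atf6 at -0.67. Asns took the place of Atf4 among the members lower.

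In the KO-labelled macrophages the same comparison gave 3 members higher and 6 lower, and 1 that did not pass, by the same test. The background was 38.8% of all genes higher and 41.1% lower, and 39.7% and 41.6% without overlap between groups. The median log2 fold change of the members was -0.61, against -0.04 for all genes. This comparison shares no library with the one in WT.

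Trib3, Sesn2, Ddit3 and Chac1 were lower under LPS here too. Trib3 read 3.01, 3.93 and 3.51 CPM under PBS and 0.675, 0.857 and 1.24 CPM under LPS (log2 fold change -1.91 ± 0.206, adjusted p = 2.19e-07). Sesn2 read 6.58, 6.74 and 7.09 CPM and then 1.78, 1.47 and 1.68 CPM (-2.05 ± 0.179, adjusted p = 1.53e-08). Ddit3 read 16.4, 19.5 and 16.3 CPM and then 8.78, 8.69 and 8.15 CPM (-1.02 ± 0.129, adjusted p = 1.47e-06). No LPS library of these genes reached the PBS range. Chac1 read 0.805, 0.842 and 0.850 CPM under PBS and 0.0614, 0.551 and 0.311 CPM under LPS. The lowest of these is 1 count in replicate 1. The log2 fold change was -1.42 ± 0.466 (adjusted p = 0.0106), and without that library it was -0.94 and did not pass (adjusted p = 0.0640).

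Among the sensors and their targets, Atf6 read 105.5, 97.9 and 103 CPM under PBS and 61.9, 53.4 and 67.1 CPM under LPS, a log2 fold change of -0.75 ± 0.0827 (adjusted p = 3e-07). Ern1 read 18.1, 18.3 and 19.5 CPM and then 15.0, 9.61 and 15.7 CPM. Its log2 fold change of -0.48 ± 0.198 (adjusted p = 0.0428) did not pass in 7 of 20 alternatives. These were RLE scaling (-0.45), no filter (-0.52), and leaving out WT PBS replicate 2 (-0.48), any 1 KO-labelled PBS library (-0.50 to -0.44) or KO-labelled LPS replicate 2, the lowest library (-0.28, adjusted p = 0.164). Hspa5 read 666, 635 and 636 CPM under PBS and 1087, 1068 and 1119 CPM under LPS, and Xbp1 read 151, 151 and 149 CPM and then 201, 229 and 214 CPM. On the TMM scale these were rises of 0.76 ± 0.0565 for Hspa5 (adjusted p = 1.79e-09) and 0.51 ± 0.0561 for Xbp1 (adjusted p = 2.53e-07). With library totals alone, Hspa5 stood at -0.04 and did not pass, and Xbp1 passed as lower at -0.29 (adjusted p = 0.000176), against a median of -0.84 for all genes.

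Atf4 and Asns did not pass as lower with LPS on the TMM scale in the KO-labelled cells. Atf4 read 239, 245 and 220.0 CPM under PBS and 239.5, 249.6 and 225 CPM under LPS, which overlapped (0.02 ± 0.0619, adjusted p = 0.749). Asns read 18.7, 17.8 and 15.3 CPM and then 18.8, 19.7 and 22.1 CPM, and passed as higher (0.23 ± 0.0969, adjusted p = 0.0424). Asns passed as higher in 10 of 20 alternatives. It did not pass with no filter (0.18), with at least 10 counts in every library (0.18), or without WT PBS replicate 2 (0.22) or 3 (0.22), KO-labelled PBS replicate 2 (0.24) or KO-labelled LPS replicate 2 (0.24). It also did not pass, at 0.14, without KO-labelled PBS replicate 3, the lowest of its group, nor, at 0.16, without KO-labelled LPS replicate 3, the highest. Both genes turned negative with 2 other scalings by the same edgeR test. With upper-quartile scaling Atf4 passed as lower (-0.33, adjusted p = 0.000289) and Asns did not pass (-0.13, adjusted p = 0.198). With library totals alone both passed as lower, Atf4 at -0.78 (adjusted p = 8.18e-09) and Asns at -0.58 (adjusted p = 2e-05).

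**Figure D2:**
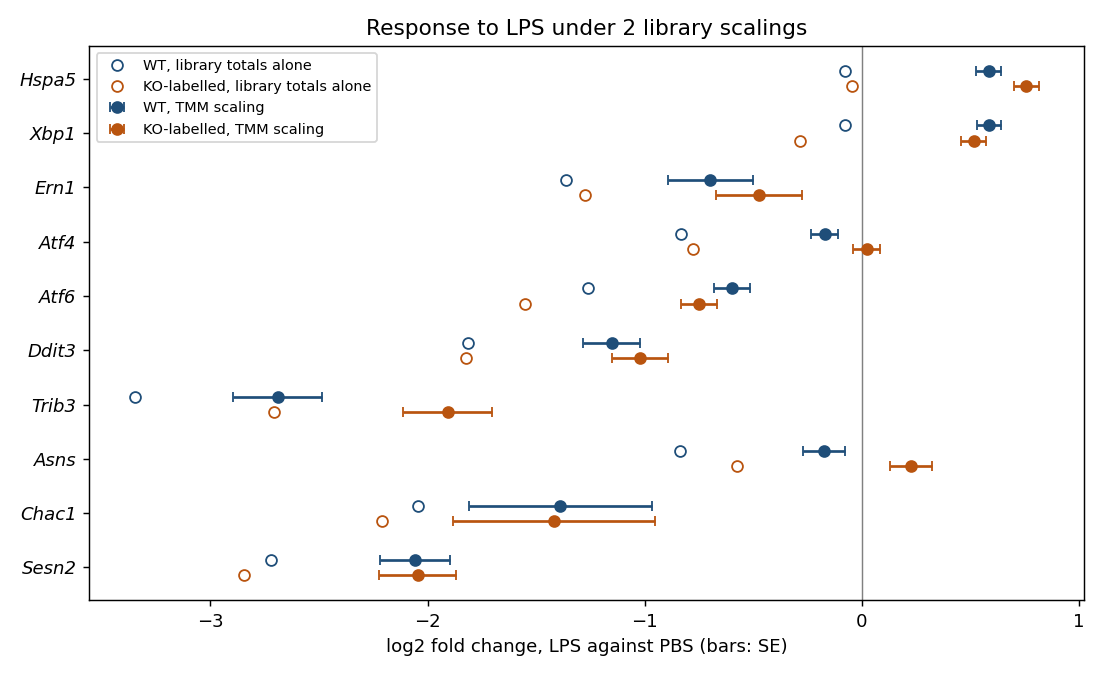
The x axis gives the log2 fold change of LPS against PBS for each gene, in WT (blue) and KO-labelled cells (orange). Filled points with SE bars are on the TMM scale, open points on library totals alone. Trib3, Sesn2, Ddit3, Chac1, Atf6 and Ern1 lie below 0 on both scales, whereas Hspa5 and Xbp1 change side, from 0.58 to -0.08 in WT.

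To examine whether the response differed between the labels, the interaction of label and LPS was tested. None of the 10 members passed by edgeR's test or by DESeq2. Over all genes tested, 9.78% passed as higher and 8.26% as lower at an adjusted p under 0.05 by edgeR. At an unadjusted p under 0.05, 4 members passed as higher, namely Hspa5, Atf4, Trib3 and Asns. The share of all genes at that looser threshold is not given here, so the 4 cannot be set against it. Asns came closest, with an interaction of 0.40 ± 0.137 on the log2 scale (adjusted p = 0.0555). Without WT LPS replicate 1, it was 0.50 and passed (adjusted p = 0.00950). Trib3 fell less in the KO-labelled cells by 0.78 ± 0.329, which did not pass (adjusted p = 0.116) and whose LPS levels rested on 11 to 20 counts per library.

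The genotype labels were then compared at rest. Under PBS, 3 members passed as lower in the KO-labelled libraries, none as higher, and 7 did not pass (edgeR), against 12.3% of all genes higher and 13.0% lower. At an unadjusted p under 0.05 there were 3 lower and 0 higher, and by DESeq2 2 lower and 0 higher. Shares of all genes are not given here for either of these. Sesn2 was lower by 0.41 ± 0.121 on the log2 scale (adjusted p = 0.0207), with 6.58 to 7.09 CPM in the KO-labelled libraries and 8.19 to 10.5 CPM in WT. Trib3 was lower by 0.39 ± 0.138 (adjusted p = 0.0477), with 3.01 to 3.93 CPM against 4.36 to 4.77 CPM, but it did not pass in 12 of 20 alternatives. Hspa5 was lower by 0.17 ± 0.0562 (adjusted p = 0.0370), with 635 to 666 CPM against 714 to 746 CPM. In none of these did the groups overlap, but the calls were near the threshold. Leaving out single libraries gave between 0 and 3 members lower, and Sesn2 did not pass without WT PBS replicate 1 (-0.26), KO-labelled PBS replicate 1 (-0.36) or KO-labelled PBS replicate 2 (-0.38). Trib3 did not pass with RLE scaling (-0.37), totals alone (-0.34), no filter (-0.39), DESeq2 (-0.38) or the replicate block (-0.39, adjusted p = 0.0649), nor without any 1 of 7 libraries, at -0.42 to -0.27, where KO-labelled PBS replicate 1 gave the smallest difference. Hspa5 did not pass in 10 of 20 alternatives. These were RLE scaling (-0.15), totals alone (-0.12), no filter (-0.17), and leaving out any 1 of the 6 PBS libraries (-0.18 to -0.13) or KO-labelled LPS replicate 1 (-0.17). Xbp1 and Chac1 were also lower without overlap and Atf4 higher without overlap, where 24.6% of all genes were lower and 23.5% higher in that sense, but none of the 3 passed (adjusted p = 0.444, 0.594 and 0.141).

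Under LPS, Atf4 alone passed, and it was higher in the KO-labelled libraries. It read 225 to 249.6 CPM there and 178 to 199 CPM in WT, a log2 fold change of 0.32 ± 0.0624 (edgeR adjusted p = 0.000643), and it passed in all 20 alternatives, between 0.23 and 0.36. The background was 22.1% of all genes higher and 19.3% lower, and 24.2% and 21.4% without overlap between groups. No member passed as lower by edgeR, 1 did at an unadjusted p under 0.05, and 1 did by DESeq2, in both cases Xbp1. Shares of all genes are not given here for the unadjusted and DESeq2 counts. Xbp1 read 201 to 229 CPM against 230 to 245 CPM in WT. Its log2 fold change was -0.13 ± 0.0560 (adjusted p = 0.0652), and it passed as lower without WT LPS replicate 1 (-0.15, adjusted p = 0.0311) and without KO-labelled LPS replicate 2 (-0.18, adjusted p = 0.0174). Asns was 0.26 ± 0.101 higher (adjusted p = 0.0519) and passed without WT LPS replicate 1 (0.36, adjusted p = 0.00839). Of the known targets of ATF4, Trib3 stood at 0.39 ± 0.298, Sesn2 at -0.40 ± 0.232, Ddit3 at 0.18 ± 0.150 and Chac1 at -0.30 ± 0.582 on the log2 scale, and none of these passed. Without WT LPS replicate 2, Sesn2 passed as lower (-0.61, adjusted p = 0.0344).

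**Figure D3:**
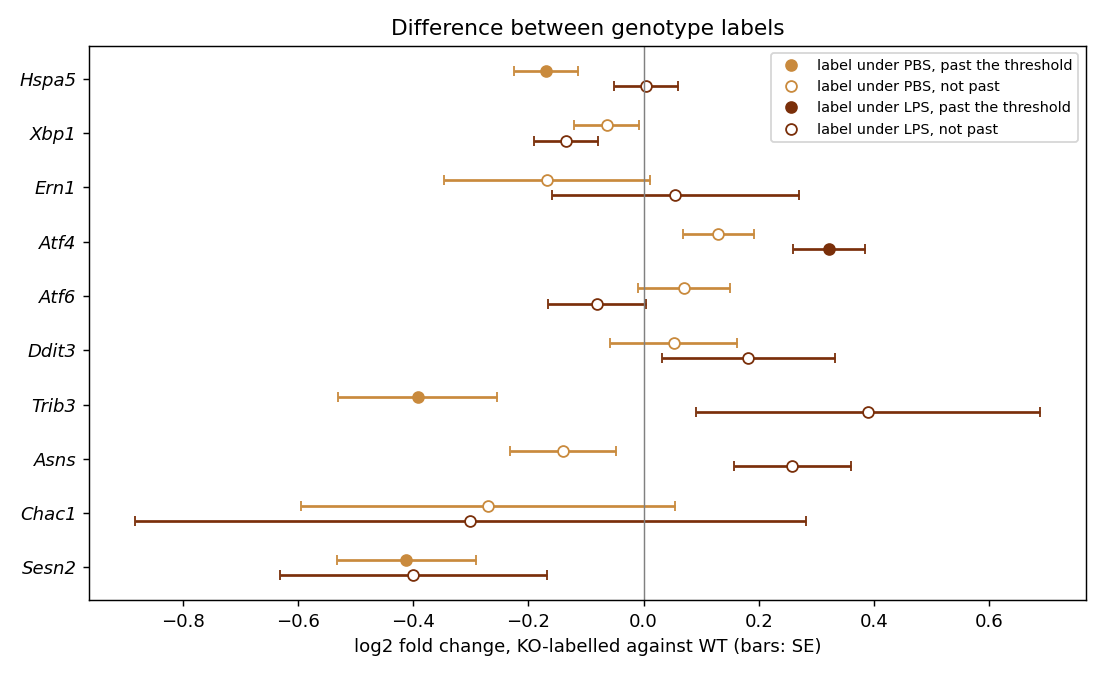
The x axis gives the log2 fold change of KO-labelled against WT libraries under PBS (light) and under LPS (dark), with SE bars. Filled points passed the threshold. These are Hspa5, Trib3 and Sesn2 under PBS, all below 0, and Atf4 under LPS at 0.32.

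The other genes of these pathways were taken from 7 lists. Under LPS in WT, the 16 genes listed as sensors and eIF2 machinery, which include regulators such as proteases and eIF2B subunits, gave 7 higher, 5 lower and 4 not past. These shares, 43.8% and 31.2%, lay near the 36.5% and 40.2% of all genes. With library totals alone 3 were higher and 12 lower. Eif2ak3 (PERK) fell from 27.4 ± 1.17 to 3.90 ± 0.351 CPM (-2.81 ± 0.106 on the log2 scale, adjusted p = 1.76e-13). In the KO-labelled cells it changed by -3.42 ± 0.114. Eif2ak2, the interferon-inducible kinase PKR that senses double-stranded RNA, rose from 18.2 ± 0.746 to 177 ± 7.59 CPM (3.28 ± 0.0821, adjusted p = 7.7e-16), and by 4.01 ± 0.0840 in the KO-labelled cells. Some further genes of the lists were singled out after their values were seen. Eif2ak4 (GCN2, which senses uncharged tRNA) changed by -1.94 ± 0.110 (adjusted p = 4.89e-11) and Eif2ak1 (HRI, the haem-regulated kinase) stood at 0.11 ± 0.0629 (adjusted p = 0.124), but passed as lower with upper-quartile scaling (-0.20) and totals alone (-0.55) and as higher with RLE scaling and DESeq2 (0.15 in each). The phosphatase subunits that reverse eIF2 phosphorylation rose in WT, Ppp1r15a (GADD34) by 0.88 ± 0.0808 (adjusted p = 3.38e-08) and Ppp1r15b (CReP) by 2.64 ± 0.0584 (adjusted p = 1.56e-16).

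ER chaperones and folding enzymes other than Hspa5 were mostly lower under LPS. Of 19 tested, 1 was higher (3 with RLE scaling or DESeq2) and 13 lower in WT, with a median of -0.33, and 2 higher and 15 lower in the KO-labelled cells, with a median of -0.46. Dnajb9 (ERdj4), an inhibitor of IRE1, fell from 40.2 ± 0.864 to 13.9 ± 0.464 CPM in WT (-1.54 ± 0.0765, adjusted p = 8.31e-12) and changed by -1.58 in the KO-labelled cells. The largest rises were small. Dnajb11 in WT (0.20 ± 0.0522, adjusted p = 0.00252) and Ero1l in the KO-labelled cells (0.35 ± 0.0590, adjusted p = 3.61e-05) turned negative with upper-quartile scaling (-0.11 and -0.0037) and with library totals alone (-0.46 and -0.45). With totals alone all 19 were lower under both labels. On the TMM scale 68.4% of the list passed as lower in WT and 78.9% in the KO-labelled cells, against 40.2% and 41.1% of all genes.

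Genes of ER-associated degradation and translocation numbered 6 higher and 6 lower of 19 tested in WT, with a median of 0.05. That is 31.6% in each direction, near the 36.5% and 40.2% of all genes. In the KO-labelled cells 7 were higher and 6 lower. These became 2 and 16 with library totals alone, and 2 and 11 with upper-quartile scaling. With library totals alone, none was higher and 16 lower in WT, with upper-quartile scaling 2 were higher and 11 lower, and without WT LPS replicate 1 there were 8 higher and 6 lower. Herpud1, an organiser of the degradation complex, fell from 33.7 ± 1.11 to 9.92 ± 1.88 CPM in WT (-1.77 ± 0.110, adjusted p = 1.75e-10) and changed by -1.16 in the KO-labelled cells. Ssr3, a subunit of the translocon-associated complex, rose by 0.80 ± 0.0608 in WT (adjusted p = 2.62e-09) and by 1.16 in the KO-labelled cells. In WT its rise did not pass with library totals alone.

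Transcription factors and stress effectors of the integrated response other than the members were mostly higher under LPS, 6 of 10 tested in WT and 7 of 10 in the KO-labelled cells, with 2 lower in each. The share of 60% higher in WT stood against 36.5% of all genes, and 70% in the KO-labelled cells against 38.8%. With library totals alone 5 were higher and 3 lower in WT, and 4 higher and 3 lower in the KO-labelled cells. Medians on the TMM scale were 0.68 and 1.07. Nupr1, a stress-induced chromatin protein, rose from 5.23 ± 0.659 to 42.2 ± 7.96 CPM in WT (3.01 ± 0.138, adjusted p = 7.86e-12). Cebpb, a partner of ATF4 and a factor of the inflammatory response, reached 1114 ± 13.2 CPM from 96.3 ± 12.8 in the KO-labelled cells (3.53 ± 0.0941, adjusted p = 1.4e-15). Cebpg, another partner of ATF4, fell in WT from 38.9 ± 1.06 to 13.7 ± 0.320 CPM (-1.51 ± 0.0638, adjusted p = 8.69e-13) and changed by -1.69 in the KO-labelled cells. Atf3, singled out after its values were seen, rose by 0.95 ± 0.0498 in WT (adjusted p = 1.81e-11), whereas Ddit3 fell.

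Amino acid transporters and synthetic enzymes linked to ATF4 gave 4 higher and 8 lower of 14 tested under each label, with medians of -0.42 and -0.57. The shares of 28.6% higher and 57.1% lower stood against 36.5% and 40.2% of all genes in WT. The cystine transporter Slc7a11 rose from 8.55 ± 0.340 to 78.0 ± 6.48 CPM in WT (3.19 ± 0.0907, adjusted p = 3.86e-15) and from 10.2 ± 0.527 to 340.0 ± 33.9 CPM in the KO-labelled cells (5.06 ± 0.0925, adjusted p = 1.26e-17). Aldh18a1, an enzyme of proline synthesis, fell by 1.76 ± 0.10 in WT (adjusted p = 5.23e-11) and by 1.58 in the KO-labelled cells. The rise of Slc7a11 thus stood beside the falls of Trib3, Sesn2 and Chac1 in the same libraries.

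Between the labels, the list of ER chaperones was the one with most genes past the threshold. Under PBS 10 of its 19 genes were lower in the KO-labelled libraries and none higher (median -0.18), and under LPS 13 were lower and 1 higher (median -0.37). The shares lower were 52.6% under PBS and 68.4% under LPS, against 13.0% and 19.3% of all genes. By DESeq2 and at each scaling tried the higher genes numbered at most 1, and the lower genes under PBS numbered 7 with library totals alone 14 in a fit to only the PBS libraries, and 6 to 11 when single libraries were left out. The lowest of these came without WT PBS replicate 1 or KO-labelled PBS replicate 3. Calr (calreticulin) read 1835 ± 66.9 CPM in WT and 1342 ± 37.7 CPM in the KO-labelled PBS libraries (-0.45 ± 0.0539, adjusted p = 1.78e-05). Sdf2l1, a co-chaperone of BiP, read 48.8 ± 4.07 CPM in WT and 22.6 ± 0.370 CPM in the KO-labelled LPS libraries (-1.11 ± 0.0695, adjusted p = 9.29e-09). Ero1l, the oxidase that feeds disulfide formation, was the gene higher under LPS (0.26 ± 0.0598, adjusted p = 0.00274). Hspa5, from the same compartment, stood at 0.00 ± 0.0562 under LPS. Fibroblast marker sums were lower in the KO-labelled libraries as well, under PBS (32.9 to 46.2 against 75.1 to 88.6 CPM) and under LPS (57.0 to 69.5 against 119 to 132 CPM), as were muscle marker sums under LPS, while the macrophage markers moved in both directions. Their part in these counts was not tested.

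The other lists were compared between the labels in the same way. Of the list of sensors and eIF2 machinery, 1 gene was higher and 1 lower under PBS, Mbtps2, the protease that cuts ATF6 (0.36 ± 0.0662, adjusted p = 0.000963), and Eif2b2, a subunit of the exchange factor eIF2B (-0.24 ± 0.0639, adjusted p = 0.0113), and under LPS 4 were higher and 1 lower, with Eif2ak2 at 0.64 ± 0.0725 (adjusted p = 4.99e-06). With totals alone 2 genes of this list were higher and 1 lower under LPS. Degradation and translocation genes numbered 2 higher and 3 lower under PBS, and 3 higher and 4 lower under LPS. The shares, 10.5% and 15.8% under PBS and 15.8% and 21.1% under LPS, were near those of all genes (12.3% and 13.0%, 22.1% and 19.3%). These counts depended on the processing. Under PBS they were 3 higher and 1 lower with totals alone, 1 and 7 with upper-quartile scaling, and 2 and 8 without WT LPS replicate 1. Under LPS they were 1 higher and 8 lower with totals alone, and 2 and 7 with upper-quartile scaling. Among them, Sec62 was higher by 0.65 ± 0.10 under LPS (adjusted p = 0.0001) and Edem2 lower by 0.46 ± 0.0604 (adjusted p = 2.18e-05). Under PBS Sec61a1 was lower by 0.26 ± 0.0539 (adjusted p = 0.00222), and Sec62 was higher by 0.28 ± 0.0984 (adjusted p = 0.0462), a call lost in 9 of 20 alternatives.

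Stress effectors gave 1 higher (10%) and none lower under PBS, against 12.3% and 13.0% of all genes, where Cebpg stood at 0.55 ± 0.0555 (adjusted p = 3.38e-06). Under LPS they gave 4 higher and 2 lower (40% and 20%, against 22.1% and 19.3%). Gdf15, a secreted stress cytokine, was the furthest apart under LPS, at 235.5 ± 10.3 CPM in KO-labelled and 89.5 ± 4.35 CPM in WT libraries (1.40 ± 0.0595, adjusted p = 8.8e-11), and Atf3 was lower by 0.18 ± 0.0495 (adjusted p = 0.00700). Of the amino acid genes, 1 was higher and 6 lower under PBS, with Gpt2 at -0.57 ± 0.0828 (adjusted p = 0.000123), and 3 higher and 6 lower under LPS. The shares were 7.1% and 42.9% under PBS, against 12.3% and 13.0% of all genes, and 21.4% and 42.9% under LPS, against 22.1% and 19.3%. Under PBS the number higher was 3 with totals alone and 0 to 2 when single libraries were left out, being 0 without WT PBS replicate 2 or 3 or KO-labelled PBS replicate 1 or 3 and 2 without KO-labelled LPS replicate 2. Slc7a11 was 2.12 ± 0.0787 higher under LPS (adjusted p = 1.7e-11), and Psat1, of serine synthesis, was lower by 0.83 ± 0.0758 (adjusted p = 5.47e-07).

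**Figure D4:**
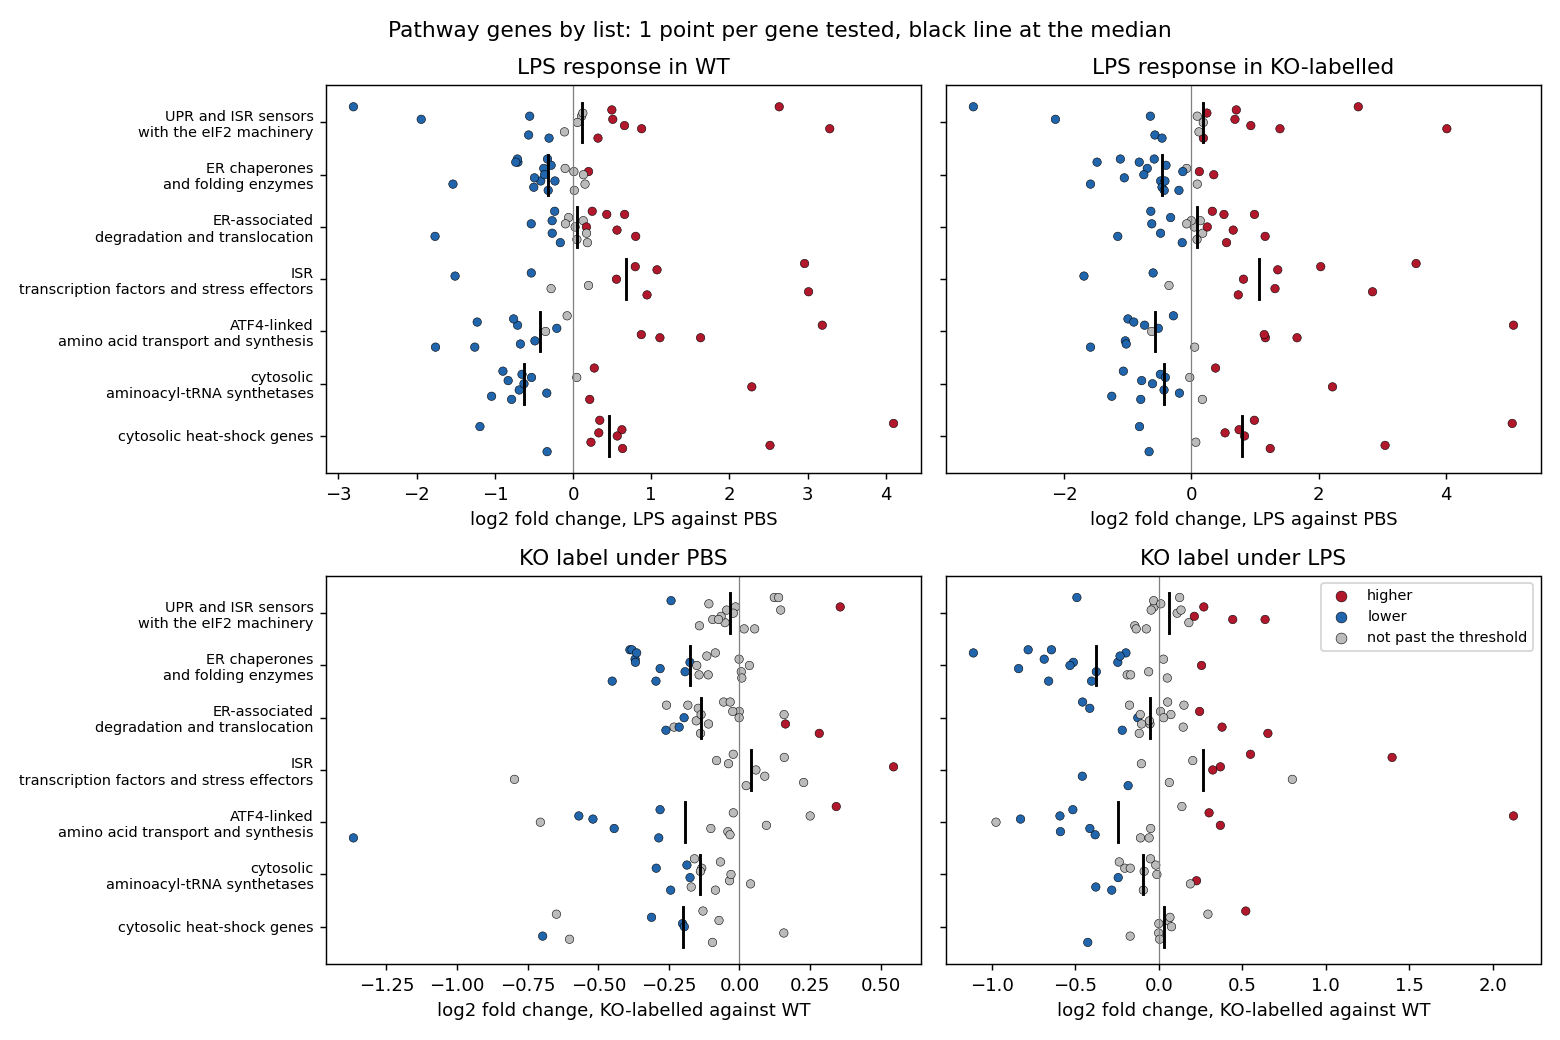
Each panel shows a comparison and each point the log2 fold change of a gene tested, by list. Red points passed as higher, blue as lower and grey did not pass, and the black line is the list's median (the synthetase list also holds the tRNA exporter Xpot). ER chaperones lie mostly left of 0 in all 4 panels, with medians from -0.46 to -0.18.

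The order of the 4 groups differed between members. For Xbp1 it ran from WT LPS through KO-labelled LPS and WT PBS to KO-labelled PBS, with no overlap between neighbours. For Hspa5 both LPS groups overlapped at the top, above WT PBS and then KO-labelled PBS. Sesn2, Chac1 and Trib3 were highest in WT PBS, then in KO-labelled PBS, and overlapped between labels under LPS. Ern1, Atf6 and Ddit3 overlapped between labels under each treatment. Atf4 overlapped between treatments in the KO-labelled libraries, above WT PBS and then WT LPS, and the neighbouring groups of Asns overlapped throughout.

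The members did not move as a block across the 12 libraries. Pearson's r of log2(CPM + 1) was 0.964 for Hspa5 with Xbp1, 0.963 for Trib3 with Sesn2 and 0.928 for Atf6 with Trib3, but -0.93 for Hspa5 with Trib3. Atf4 gave 0.239 with Trib3 and 0.079 with Sesn2, and Asns gave 0.075 with Trib3. These values describe 12 libraries that share 2 treatments and 2 labels, so the points are not independent. By the same measure, over genes of at least 10 CPM on average, the gene most like each member was Il2rg for Hspa5 (r = 0.9946), Scamp2 for Xbp1 (0.9908), Herc2 for Ern1 (0.9714), Ngly1 for Atf4 (0.9722) and Zfp318 for Atf6 (0.9906). For the effectors it was Apopt1 for Ddit3 (0.9837), Polr3e for Trib3 (0.993), Ino80c for Asns (0.8298), Evi5l for Chac1 (0.9318) and Myo7a for Sesn2 (0.9928). As many as 1467 of the genes compared exceeded 0.95 with Hspa5, 821 with Sesn2 and 646 with Trib3, against 2 with Atf4 and none with Asns or Chac1.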

How the data were processed

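RNA from 12 macrophage libraries was sequenced on a BGISEQ-500 by the authors (single-end, 50 bases). The deposited values are expected counts per gene (estimated counts, with decimals), not scaled between libraries. The submitters' processing notes name Bowtie2, RSEM 1.3.1 and GRCm38.p6, whereas the study's methods name STAR and HTSeq, so the counter is uncertain. Gene numbers matched RefSeq for 16803 of 16920 genes.

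Counts were rounded to whole numbers. The software was edgeR 4.0.16 (with limma 3.58.1) under R 4.3.3. After filterByExpr (12064 genes left) and TMM scaling (trimmed mean of M values), which assumes that most genes do not change, a single quasi-likelihood model with 4 group means was fitted to all 12 libraries. Contrasts were LPS against PBS within each label, KO-labelled against WT within each treatment, and their interaction. P-values were two-sided and adjusted by Benjamini-Hochberg over all genes, with a threshold of 0.05. The pipeline was tested on simulated data. The biological coefficient of variation was 6.99%. A floor of 3 counts equalled 0.105 to 0.187 CPM per library and covers counting error only.

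Alternatives were RLE and upper-quartile scaling, library totals alone, no filter, a stricter filter (10 counts or more in each library), DESeq2 1.42.0, a fit without the groups not compared, a block for replicate number, and each library left out. Beside the members, the genes named are Ythdf1, the largest riser and faller of each list per comparison (past the threshold, at least 5 CPM in the higher group, groups not overlapping), and the gene most like each member. Eif2ak1, Eif2ak4, Ppp1r15a, Ppp1r15b and, for LPS in WT, Atf3 fall outside this rule and were chosen after their values were seen. The members, the 7 pathway lists and the 8 marker lists were chosen with earlier results of these data known. Of the listed genes, Derl3, Stc2, Vldlr, Pycr1, Slc7a3, Cth and Cbs did not pass the filter, and Fgf21 was not used here. Of the marker lists not described elsewhere, T cell genes summed to 147 to 466 CPM, nearly all of it Il7r, with Cd3e at no more than 0.0622 CPM. Neutrophil markers summed to 4.15 to 16.1 CPM, mast cell markers to 0.175 to 3.56 CPM and mesothelial markers to 6.70 to 15.0 CPM.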

Additional observations from a re-analysis of the deposited data

Results flagged for a closer look

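None of the 10 members passed the test of the interaction of label and LPS, although Asns passed without WT LPS replicate 1 (0.50, adjusted p = 0.00950). Over all genes 9.78% passed as higher and 8.26% as lower. The targeted gene passed, as did 13 of the 35 pathway genes named that are no members, most of which were chosen as the largest risers and fallers, so their share is not comparable with that of the members or of all genes. The test was edgeR's quasi-likelihood test with adjustment over all genes. Values are KO-labelled minus WT responses on the log2 scale, with 3 libraries per group. The response of Ythdf1 was smaller, at -0.42 (adjusted p = 0.00177). Among eIF2 kinases and ER genes, Eif2ak2 stood at 0.73 (adjusted p = 0.000294), Eif2ak3 at -0.61 (adjusted p = 0.0222), Sdf2l1 at -0.75 (adjusted p = 4.91e-05), Edem2 at -0.40 (adjusted p = 0.00362), Herpud1 at 0.61 (adjusted p = 0.0129) and Ssr3 at 0.36 (adjusted p = 0.00854). Among effectors and amino acid genes, Slc7a11 stood at 1.87 (adjusted p = 1.05e-07), Gdf15 at 1.24 (adjusted p = 1.28e-07), Cebpb at 0.57 (adjusted p = 0.00408), Psat1 at -0.31 (adjusted p = 0.0448) and Atf3 at -0.21 (adjusted p = 0.04999). Ppp1r15a, singled out after its values were seen, stood at 0.52 (adjusted p = 0.00502). The heat-shock gene Hsp90aa1 stood at 0.65 (adjusted p = 0.000231). Of 19 alternatives, Atf3 did not pass in 12, Psat1 in 9, Eif2ak3 in 3 and Ssr3 in 1, and the others passed in all.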

How the results depend on the processing

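The falls of Atf6, Ddit3, Trib3 and Sesn2 with LPS under both labels, and the higher Atf4 of the KO-labelled LPS libraries, passed in all 20 alternatives. Library totals alone moved the median of all genes by -0.66 in WT and -0.80 in KO-labelled cells relative to TMM, and upper-quartile scaling by -0.31 and -0.36. With totals alone, 0 members were higher with LPS in WT and 0 in KO-labelled cells, genes higher numbered 2223 and 2202 (4404 and 4682 by TMM), genes lower 8247 and 8387 (4850 and 4953), and the interaction gave 627 higher and 1945 lower (1180 and 996). The higher share of LPS calls in WT was thus 21.2% by totals and 47.6% by TMM, and in KO-labelled cells 20.8% and 48.6%, with 32.5% and 33.8% by upper-quartile scaling. Between the labels it was 48.6% under PBS (61.6% by totals), 53.4% under LPS (37.9% by totals, 41.6% by upper quartile) and 54.2% in the interaction (24.4% and 43.1%). Directions that turned with totals alone were, for LPS in WT, Hspa5 (-0.078), Xbp1 (-0.078), Eif2ak1 (-0.55) and Dnajb11 (-0.46), for LPS in KO-labelled cells Hspa5 (-0.044), Xbp1 (-0.29), Atf4 (-0.78), Asns (-0.58) and Ero1l (-0.45), for the label under LPS Hspa5 (-0.086) and Ern1 (-0.032), and for the interaction Ddit3 (-0.0091) and Sesn2 (-0.13). With upper-quartile scaling the same held for Dnajb11 (-0.11) and Eif2ak1 (-0.20), for Atf4 (-0.33), Asns (-0.13) and Ero1l (-0.0037), for Hspa5 (-0.065) and Ern1 (-0.012), and for Sesn2 (-0.033). Sesn2 also turned with RLE scaling (-0.0064) and DESeq2 (-0.0072). Atf4 in KO-labelled cells turned with no filter (-0.022) or at least 10 counts (-0.027), and Hspa5 under LPS with at least 10 counts (-0.012) or only the libraries compared (-0.011).

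Members lower under PBS numbered 1 with RLE scaling, totals alone or no filter, and members higher 1 in the fit to only the libraries compared, which called 2275 genes higher (1486 by all 12). Under LPS, 1 member was lower with upper-quartile scaling, totals alone, at least 10 counts and DESeq2. Leaving out single libraries gave 0 to 3 members lower and 918 to 2000 genes lower under PBS, 1 to 2 members higher and 0 to 1 lower under LPS, and 0 to 1 members and 738 to 1552 genes higher in the interaction. Signs that turned when a library was left out had ranges of -0.025 to 0.061 (Atf4, LPS in KO-labelled), -0.012 to 0.12 (Ddit3, PBS), -0.045 to 0.042 (Hspa5, LPS), -0.10 to 0.36 (Ern1, LPS), -0.16 to 0.0056 (Atf6, LPS), -1.01 to 0.27 (Chac1, LPS), -0.055 to 0.012 (Ythdf1, LPS), -0.050 to 0.24 (Ddit3, interaction), -0.75 to 0.54 (Chac1, interaction) and -0.20 to 0.14 (Sesn2, interaction). The causes were not tested.

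Replicate numbers recur in all groups. Same-numbered libraries deviated together weakly at most (r between -0.26 and 0.25 over 12 pairs, 5 of them over 0.1). Between PBS and LPS, r was 0.209, 0.222 and -0.0371 in WT and 0.0395, 0.137 and 0.108 in KO-labelled cells. The main fit did not treat them as pairs, and whether they are pairs is not settled by these values. With the replicate block, 2 members were higher under LPS, since Asns passed (0.26, adjusted p = 0.0452), and Trib3 under PBS did not (-0.39, adjusted p = 0.0649). Depth limits Chac1 and, under LPS, Trib3, and Chac1 could not be fitted with at least 10 counts in every library. Counts of the 7 lists beyond those printed moved by over 1.5 times in some alternatives.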

Other observations

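Cytosolic heat-shock genes and aminoacyl-tRNA synthetases act outside the ER. In WT 36.5% of all genes passed as higher with LPS and 40.2% as lower, and in KO-labelled cells 38.8% and 41.1%. Of 10 heat-shock genes, 8 were higher and 2 lower in WT (80% and 20%, median 0.45). In KO-labelled cells 7 were higher and 2 lower (70% and 20%, median 0.79). With library totals alone 2 were higher and 5 lower in WT, and 3 higher and 4 lower in KO-labelled cells. With upper-quartile scaling these were 4 and 2 in WT, and 7 and 3 in KO-labelled cells. Without WT LPS replicate 1 there were 6 higher and 2 lower in WT. In the interaction 2 heat-shock genes were higher (20%, against 9.78% of all genes). They numbered 4 by DESeq2 and 1 with library totals alone. When single libraries were left out they numbered 1 to 5, with 5 without WT LPS replicate 1. Hspa1b, an inducible HSP70, rose from 0.883 ± 0.519 to 15.3 ± 1.38 CPM in WT (log2 fold change 4.10 ± 0.211, edgeR adjusted p = 2.64e-11, n = 3) and by 5.04 ± 0.224 in KO-labelled cells. Its reads may be shared with its near-identical copy Hspa1a. Hsph1, a co-chaperone of HSP70, fell by 1.19 ± 0.113 in WT (adjusted p = 4.66e-08) and by 0.81 in KO-labelled cells.

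The list of aminoacyl-tRNA synthetases, many of which are known targets of ATF4, held 12 of these enzymes and Xpot, the tRNA exporter. Of its 13 genes 3 were higher and 9 lower in WT (23.1% and 69.2%, median -0.63), and 2 higher and 9 lower in KO-labelled cells (15.4% and 69.2%, median -0.43), with Xpot among the lower ones in both. With library totals alone 1 was higher and 12 lower under each label. Wars, the interferon-inducible tryptophan enzyme, rose from 73.4 ± 2.17 to 358 ± 23.4 CPM in WT (2.29 ± 0.0615, adjusted p = 1.88e-15), and Sars fell by 1.04 ± 0.0773 (adjusted p = 1.93e-09). In KO-labelled cells these were 2.22 and -1.25. Between the labels, 12.3% of all genes were higher and 13.0% lower under PBS, and 22.1% and 19.3% under LPS. Heat-shock genes numbered 0 higher and 4 lower (40%) under PBS, with Hsph1 at -0.31 (adjusted p = 0.0338). The number lower was 1 to 4 when single libraries were left out, with 2 without WT PBS replicate 1 or KO-labelled PBS replicate 1 and 1 without KO-labelled PBS replicate 2. Under LPS 1 was higher and 1 lower (10% each), Hsp90aa1 at 0.52 (adjusted p = 1.86e-05) and Bag3 at -0.43 (adjusted p = 0.00106). The genes of the synthetase list numbered 0 higher and 4 lower (30.8%) under PBS, with Yars at -0.29 (adjusted p = 0.0465), but 0 were lower with RLE scaling, totals alone or DESeq2, and 0 to 6 when single libraries were left out. Under LPS they numbered 1 higher and 3 lower, 7.7% and 23.1% (0 and 6 with totals alone or upper-quartile scaling), with Eprs at 0.23 (adjusted p = 0.0144) and Sars at -0.38 (adjusted p = 0.00147). The calls of Yars and Hsph1 under PBS were lost in 13 and 8 of 20 alternatives, and that of Eprs in 5.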
